A study of Mus musculus with 12 samples.

Results

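The Mediator complex was examined at the level of its transcripts in murine bone marrow-derived macrophages (BMDMs) treated with a BET bromodomain inhibitor. Its genes were taken from the count table by symbol: every row named Med followed by a digit, together with Cdk8, Cdk19 and Ccnc. This gave 34 rows of 24421 in the table. Of these, 33 encode subunits or their paralogs, and 1, Med9os, is an opposite-strand transcript beside Med9.

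Mediator is a large complex that carries signals from transcription factors bound at enhancers to RNA polymerase II at promoters. Its head and middle modules contact the polymerase, the tail module binds activators, and Med14 holds these parts together as a scaffold. A separable kinase module, made of Cdk8 or Cdk19 with cyclin C (Ccnc), Med12 or Med12l, and Med13 or Med13l, docks on the core and regulates its contact with the polymerase. BET proteins read acetylated histones and have been linked to Mediator at active enhancers.

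BMDMs were grown from the bone marrow of C57BL/6 mice in M-CSF at 100 ng/mL for 5 days and then exposed for 4 h to ovalbumin (Ova) or to ovalbumin immune complexes with IgG (IC). The inhibitor I-BET151 (iBET) was given at 5.0 µM, and control cells received its solvent, DMSO. Crossing drug with stimulus gave 4 groups, each with 3 libraries, taken as 1 from each of 3 mice (A, B and C). All groups were wild type, and no group was left without antigen.

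Total counts ran from 7549849 to 17387639 per library. The DMSO Ova library of mouse A stood apart: 77.4% of its counts fell on Rn45s, a ribosomal RNA precursor, against 1.41% to 7.83% in the other 11, and it had the fewest counts outside Rn45s, 1768133 against 7247830 to 16899110. It held 2553 counts over all Mediator rows, against 11013 to 25920 elsewhere. All 9 macrophage markers were tested, with a summed level between 6464 and 8657 CPM (counts scaled to the depth of the library). In IC this sum was higher with iBET, at 7897 to 8597 against 6464 to 7361 with DMSO, and in Ova the ranges overlapped, at 7297 to 8657 against 6724 to 7814; its part in the drug results was not tested. The summed markers of B cells, T cells, dendritic cells, erythroid cells, fibroblasts and mast cells or basophils stayed at or below 2.57 CPM, with Pax5, Cpa3, Mcpt4, Mcpt8 and Tpsb2 at 0 in every library. The summed neutrophil markers ran from 7.70 to 50.4 CPM, with ranges that overlapped in all 4 groups; their part in the results was not tested. Because these are bulk libraries, fewer cells of a type and less RNA per cell cannot be told apart.

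Nearly all of the complex was expressed. Of the 34 rows, 32 passed the filter on low counts. The exceptions were Med12l, the Med12 paralog, with 0 to 2 counts in each library, and Med9os, with 0 to 4. Levels of different genes were compared per length, as CPM per kilobase of merged exons. On this scale Med13 was the highest in DMSO Ova at 22.5 ± 1.3 (SD, n = 3), followed by Med19 of the middle module at 21.0 ± 2.6 and Med6 of the head at 16.7 ± 1.6. The first and second of these did not differ beyond their spread. Cdk19, a kinase of the complex, stood at 14.4 ± 2.1, and its paralog Cdk8 at 3.05 ± 0.26. The lowest tested subunits were Med27 at 1.47 ± 0.34, Med20 at 1.58 ± 0.33 and Med31 at 1.90 ± 0.22, which overlapped in spread. Of the 32 tested rows, 17 lay above 5.52, the median of all tested genes. The order depends on the gene model: with the longest transcript in place of merged exons, Med15 of the tail moved from 12.1 to 40.4 and from rank 6 to rank 1. Cdk8 moved from 3.05 to 7.70 while Cdk19 was at 14.5, so the gap between these paralogs depends on the gene model.

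**Figure D1:**
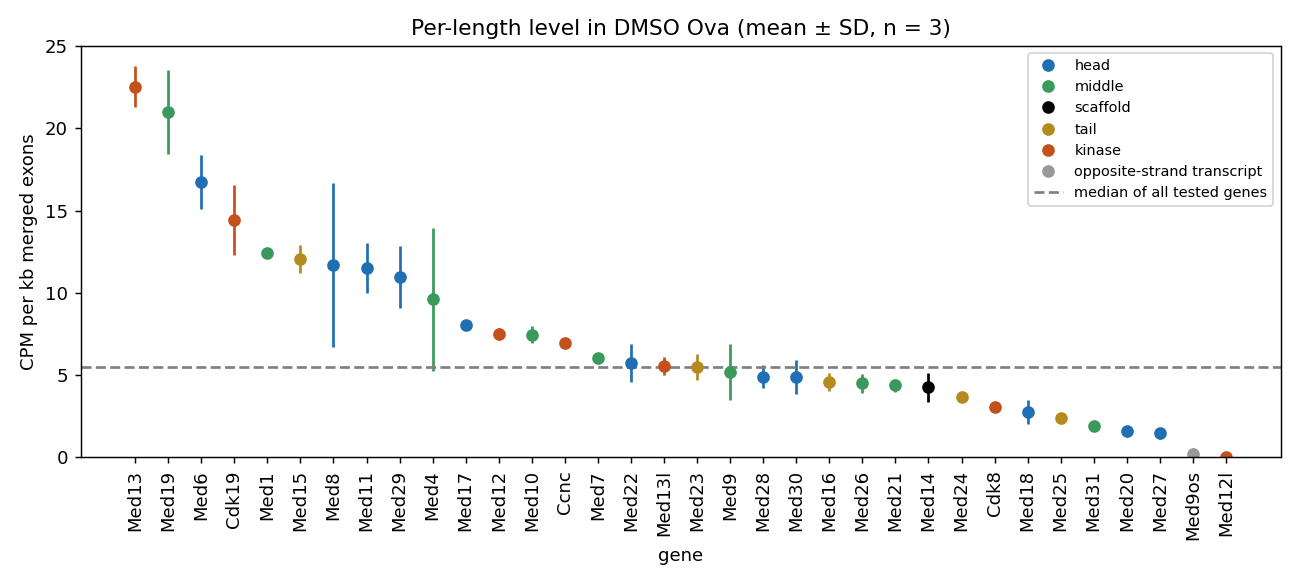
Per-length level of the Mediator rows in DMSO Ova (y axis, CPM per kilobase of merged exons; points are means and bars are SD over 3 libraries), ordered from high to low and coloured by module, with the median of all tested genes as a dashed line. Med13 and Med19 lead at 22.5 and 21.0, and Med12l and Med9os lie near 0.

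The promoters of Med22 and Med12 are shown because these subunits had the largest mean rise and fall with iBET among those called in both stimulations with a mean count of at least 50. Both are RefSeq windows (GRCm38.p6) from 250 bases before to 50 after the start, read 5′ to 3′ on the gene's strand, with capitals marking matches to a set of 7 searched motifs. Med22 lies on the minus strand at chr2:26910593-26910892, and Med12 on the plus strand at chrX:101273841-101274140.
Med22: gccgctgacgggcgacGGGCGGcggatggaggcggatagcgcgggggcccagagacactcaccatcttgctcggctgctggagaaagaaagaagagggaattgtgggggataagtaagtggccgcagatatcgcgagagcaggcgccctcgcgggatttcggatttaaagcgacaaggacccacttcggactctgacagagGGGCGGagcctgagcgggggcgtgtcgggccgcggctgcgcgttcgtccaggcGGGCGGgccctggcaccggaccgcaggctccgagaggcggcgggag
Med12: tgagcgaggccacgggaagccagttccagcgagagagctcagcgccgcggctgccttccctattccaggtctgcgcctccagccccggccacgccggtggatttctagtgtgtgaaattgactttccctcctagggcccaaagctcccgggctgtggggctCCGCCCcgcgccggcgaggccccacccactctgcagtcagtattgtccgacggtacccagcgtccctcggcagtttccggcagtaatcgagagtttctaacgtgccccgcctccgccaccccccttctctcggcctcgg
The capitals in both are the GC box GGGCGG or its reverse complement, 3 times in Med22 and 1 time in Med12. GGGCGG was present on either strand in 35.7% of 32851 promoter windows and in 21 of the 33 windows of 29 Mediator genes. None of the other 6 motifs searched on both strands (the CCAAT box, the E-box CACGTG, the cyclic AMP response element TGACGTCA, the ETS site CCGGAAGT, the TATA box TATAAA and the YY1 site AAGATGGCG) matched in either window. They were present in 37.4%, 7.15%, 1.79%, 3.89%, 13.6% and 1.40% of all windows, in that order, and in 12, 4, 1, 4, 3 and 0 of the 33.

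The first question was how iBET changed Mediator transcripts in Ova-treated cells. Of the 32 tested subunits, 4 rose and 3 fell (adjusted p under 0.05, edgeR's quasi-likelihood test with Benjamini-Hochberg adjustment over 11468 genes), against 31.3% of all tested genes, 17.1% higher and 14.2% lower. This was 21.9% of the subunits. In IC-treated cells 6 rose and 4 fell, or 31.3% of subunits, against 34.8% of all genes, 19.0% higher and 15.8% lower. The median log2 fold change of the subunits was 0.0070 in Ova and 0.0088 in IC, beside 0.019 and -0.0037 over all tested genes. The fold change was above 0 for 16 and below 0 for 16 subunits in Ova, and for 18 and 14 in IC. The libraries of the drug groups did not overlap for 17 of the 32 subunits in Ova, against 45.1% of all genes, and for 13 in IC, against 48.6%.

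**Figure D2:**
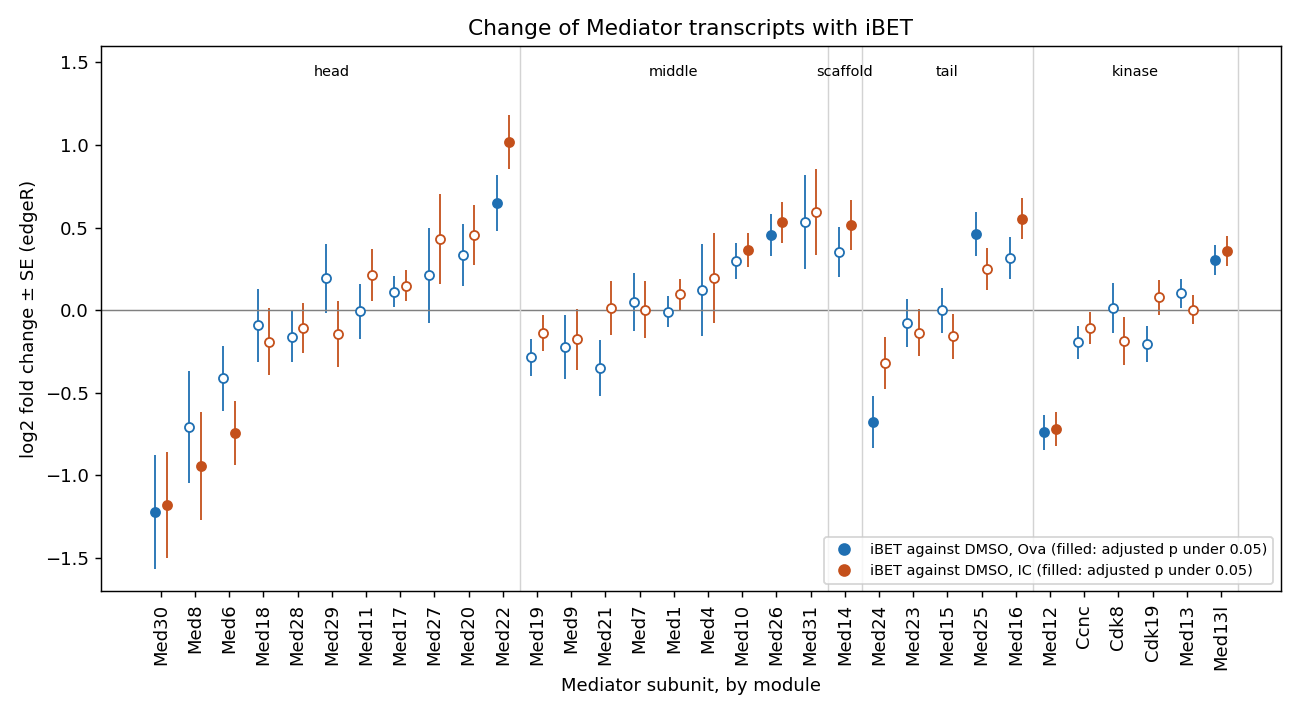
Log2 fold change with iBET (y axis, with standard errors from edgeR) for the 32 tested Mediator subunits, grouped by module, in Ova (blue) and IC (orange); filled points have an adjusted p under 0.05. Changes lie on both sides of 0 in the head, middle, tail and kinase modules, from -1.22 for Med30 to 1.02 for Med22.

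By module, the head (Med6, Med8, Med11, Med17, Med18, Med20, Med22, Med27, Med28, Med29 and Med30) had 1 rise and 1 fall in Ova, and 1 rise and 3 falls in IC. The middle (Med1, Med4, Med7, Med9, Med10, Med19, Med21, Med26 and Med31) had 1 rise in Ova and 2 in IC, with no fall. The tail (Med15, Med16, Med23, Med24 and Med25) had 1 rise and 1 fall in Ova and 1 rise in IC. The kinase module had 1 rise and 1 fall in each. Across both contrasts, 5 subunits passed in both, 2 in Ova alone, 5 in IC alone and 20 in neither. This split was not counted over all genes, so whether it is particular to the subunits is not known. No subunit had a different response to iBET in IC and Ova by the test of that difference (0 of 32 by edgeR and by DESeq2, and 0 below 0.05 before adjustment). Over all 11468 genes edgeR called 0.0%, with 292 below 0.05 before adjustment, and DESeq2 called 1 higher and 3 lower.

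Med12, which activates the Cdk8 and Cdk19 kinases, had the smallest adjusted p of the subunits in both contrasts. In DMSO Ova its libraries read 54.4, 59.0 and 59.6 CPM in mice A, B and C, and in iBET Ova 37.2, 31.1 and 35.8. In IC they read 63.2, 65.0 and 63.1 CPM with DMSO, and 37.1, 43.1 and 36.0 with iBET. Every iBET library lay below every DMSO library. On the log2 scale the fold change was -0.74 ± 0.10 (SE) in Ova (adjusted p = 0.000234) and -0.72 ± 0.10 in IC (adjusted p = 0.000206), and it stayed past the threshold without any 1 mouse or library. In the annotation, 9.7% of its exon bases overlap Gm21986 on the same strand.

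Med30, a metazoan subunit of the head, fell by the most but was among the least counted, with 11 to 112 counts per library. It read 5.6, 4.6 and 7.0 CPM in DMSO Ova and 1.9, 3.0 and 2.7 in iBET Ova. In IC it read 9.4, 5.0 and 4.1 CPM with DMSO and 3.0, 2.2 and 2.9 with iBET, so that the groups were apart in both. The log2 fold change was -1.22 ± 0.34 in Ova (adjusted p = 0.0175) and -1.18 ± 0.32 in IC (adjusted p = 0.0135). When mouse A's DMSO IC library was omitted, the change in IC was -0.75 (adjusted p = 0.0653), and when mouse C's DMSO Ova library was omitted, that in Ova was -0.99 (adjusted p = 0.0962).

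Med8 and Med6, further subunits of the head, passed as lower only in IC, and their values depended on mouse A. Med8 read 52.4, 27.4 and 25.7 CPM in DMSO Ova and 19.1, 21.9 and 20.5 in iBET Ova. It read 56.3, 25.1 and 26.5 CPM in DMSO IC and 21.3, 19.0 and 15.7 in iBET IC. Both DMSO libraries of mouse A were thus well above the other DMSO libraries, while its iBET libraries were not. Its log2 fold change was -0.71 ± 0.34 in Ova (adjusted p = 0.138) and -0.94 ± 0.33 in IC (adjusted p = 0.0443). With both DMSO libraries of mouse A left out, a choice made after these levels were seen, it was -0.41 (adjusted p = 0.0278) and -0.48 (adjusted p = 0.0124), smaller but past the threshold in both. The call in IC was lost in 8 of the 12 fits that left out 1 library, with an adjusted p of up to 0.154 and a value of -0.49 without mouse A's DMSO IC library. Med6 read 33.1, 19.0 and 21.5 CPM in DMSO IC against 16.7, 13.1 and 14.1 in iBET IC, with the groups apart. Its log2 fold change was -0.74 ± 0.19 in IC (adjusted p = 0.00996) and -0.41 ± 0.20 in Ova (adjusted p = 0.133). With mouse as a block the value in Ova was -0.44 (adjusted p = 0.0470). With both DMSO libraries of mouse A left out, Med6 gave -0.49 in IC (adjusted p = 0.0160) and -0.39 in Ova (adjusted p = 0.0434).

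Med4, a middle subunit outside the rule for named genes and chosen after its values were seen, was also high in those libraries. It read 48.8, 22.0 and 25.7 CPM in DMSO Ova against 31.3, 34.8 and 32.9 in iBET Ova, and 33.8, 18.5 and 22.5 in DMSO IC against 32.5, 25.1 and 28.2 in iBET IC. The groups overlapped in both. Its log2 fold change was 0.12 ± 0.28 in Ova (adjusted p = 0.779) and 0.19 ± 0.27 in IC (adjusted p = 0.611), and with both DMSO libraries of mouse A left out 0.43 (adjusted p = 0.0237) and 0.46 (adjusted p = 0.0202). That omission gave 10 called subunits in Ova and 12 in IC, of 32 tested. Over all 11616 genes tested it called 2210 higher and 2061 lower in Ova, and 2225 and 2049 in IC.

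Med24, an activator-binding tail subunit, passed as lower in Ova. It read 22.6, 24.2 and 24.5 CPM with DMSO and 16.5, 14.1 and 14.2 with iBET, with no overlap, for a log2 fold change of -0.68 ± 0.16 (adjusted p = 0.00661, but 0.130 without mouse B and 0.0970 without mouse C). In IC the DMSO library of mouse A, at 14.2 CPM, lay just below the iBET range of 14.3 to 15.8, and the other DMSO libraries at 21.3 and 21.0 lay above. The log2 fold change there was -0.32 ± 0.16 (adjusted p = 0.134), and -0.51 with both DMSO libraries of mouse A left out (adjusted p = 0.00644).

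**Figure D3:**
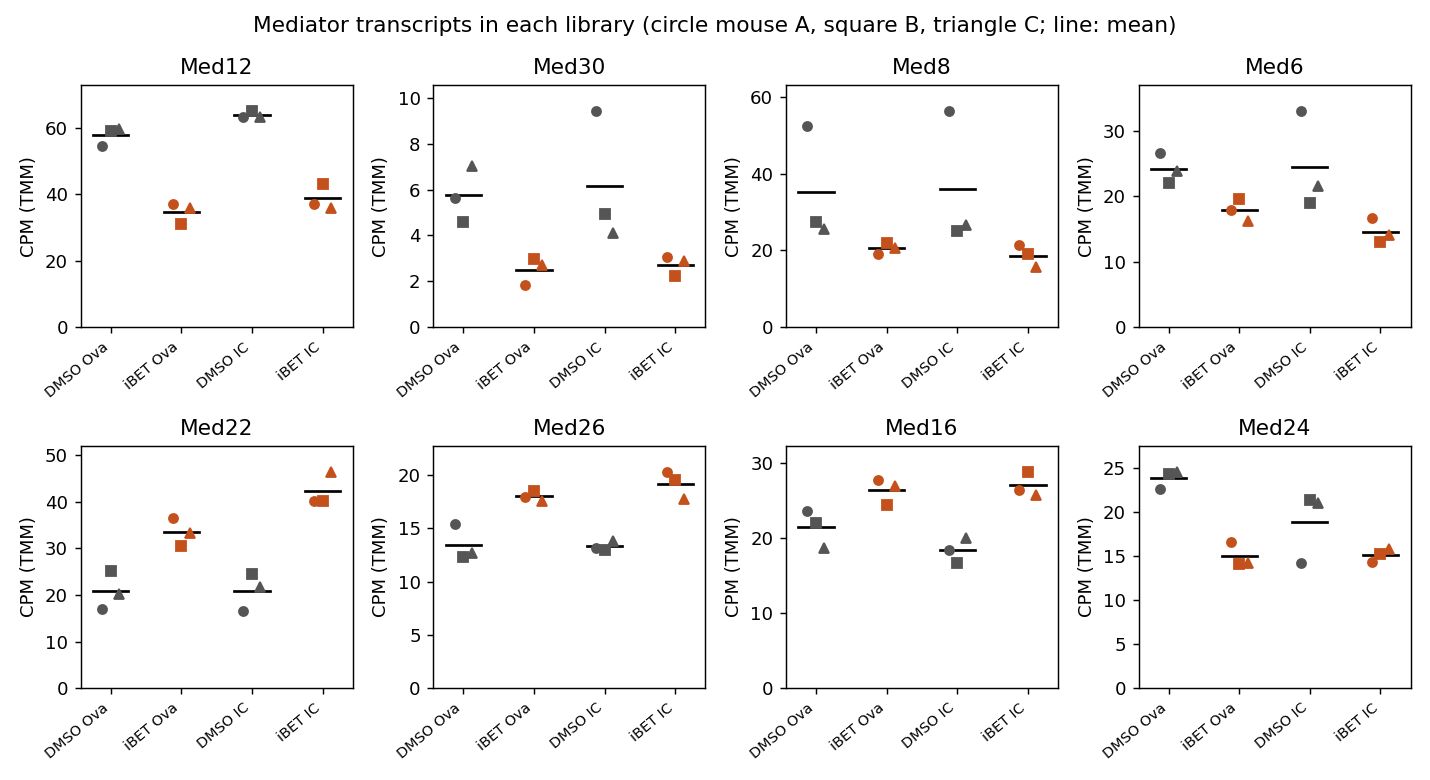
Level in each of the 12 libraries (y axis, CPM with TMM scaling, from 0) for 8 Mediator subunits by group, with a mark for each mouse and a line at the mean of 3 libraries. Med12 and Med22 separate by drug in both stimulations, and Med8 is at 52.4 and 56.3 in the DMSO libraries of mouse A against 25.1 to 27.4 in the other DMSO libraries.

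Among the rises, Med22 of the head was the largest. It read 16.9, 25.2 and 20.3 CPM in DMSO Ova and 36.6, 30.5 and 33.3 in iBET Ova. In IC it read 16.5, 24.5 and 21.6 CPM with DMSO and 40.1, 40.2 and 46.5 with iBET. All iBET libraries exceeded all DMSO libraries. This was a log2 fold change of 0.65 ± 0.17 in Ova (adjusted p = 0.0116) and 1.02 ± 0.16 in IC (adjusted p = 0.000497). With mouse A's DMSO Ova library omitted, the value in Ova was 0.51 (adjusted p = 0.0522), and without mouse C it was 0.61 (adjusted p = 0.123).

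Med26, which links Mediator to elongation factors, rose in both as well. It read 15.4, 12.3 and 12.7 CPM in DMSO Ova against 18.0, 18.5 and 17.6 in iBET Ova, and 13.1, 12.98 and 13.8 in DMSO IC against 20.3, 19.6 and 17.7 in iBET IC. The groups did not overlap in either. In log2 terms the rise was 0.45 ± 0.13 in Ova (adjusted p = 0.0164) and 0.53 ± 0.12 in IC (adjusted p = 0.00484), and 12.7% of its exon bases overlap the antisense gene Gm17435. The call in Ova was lost in 3 of the 12 fits that left out 1 library, with an adjusted p of up to 0.0754 without mouse B's DMSO Ova library, and without mouse B (adjusted p = 0.252) or mouse C (adjusted p = 0.140). That in IC was lost without mouse B (adjusted p = 0.110).

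Med16 and Med25 are tail subunits, and each passed in 1 stimulation. Med16 read 18.4, 16.7 and 20.02 CPM in DMSO IC and 26.5, 28.9 and 25.8 in iBET IC, with the groups apart and a log2 fold change of 0.55 ± 0.12 (adjusted p = 0.00414, but 0.130 without mouse B). In Ova its log2 fold change was 0.32 ± 0.13 (adjusted p = 0.0758). Med25, the target of several activators, read 17.5, 19.5 and 18.2 CPM in DMSO Ova and 28.1, 25.03 and 23.4 in iBET Ova. Its groups were apart there, and the log2 fold change was 0.46 ± 0.13 (adjusted p = 0.0184), or 0.39 with mouse A's DMSO Ova library omitted (adjusted p = 0.0719). The call in Ova was lost in 3 of the 12 fits that left out 1 library. It was also lost without any 1 mouse (adjusted p from 0.0969 to 0.125). In IC the log2 fold change of Med25 was 0.25 ± 0.13 (adjusted p = 0.153).

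The scaffold Med14 and the middle subunit Med10 passed in IC. Med14 read 28.7, 34.5 and 39.7 CPM in DMSO IC and 45.0, 48.4 and 53.9 in iBET IC, with no overlap. Its log2 fold change was 0.52 ± 0.15 (adjusted p = 0.0177), and in Ova 0.36 ± 0.15 (adjusted p = 0.0943, or 0.0230 with mouse as a block), which was 0.18 with mouse A's DMSO Ova library omitted (adjusted p = 0.378). With mouse A's DMSO IC library omitted, the value in IC was 0.37 (adjusted p = 0.0820), and the call was also lost without mouse B (adjusted p = 0.169). Med10 read 36.9, 32.3 and 36.9 CPM in DMSO IC and 49.6, 41.7 and 45.2 in iBET IC, also with no overlap. Its log2 fold change was 0.36 ± 0.10 (adjusted p = 0.0167), and in Ova 0.30 ± 0.11 (adjusted p = 0.0503, or 0.0464 with mouse as a block). The call in IC was lost in 2 of the 12 fits that left out 1 library, with an adjusted p of up to 0.0817 without mouse A's iBET IC library, and without any 1 mouse (adjusted p from 0.0583 to 0.136). Since 92.8% of its exon bases overlap Gm26819 on the opposite strand and the use of strand in counting is not given in the sources used here, reads of the 2 genes cannot be told apart.

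In the kinase module, Med13l rose with iBET while Med13, its paralog and the link between kinase and core, had values near 0. Med13l read 77.6, 85.9 and 94.3 CPM in DMSO Ova against 106.8, 107.5 and 105.8 in iBET Ova, and 95.4, 98.0 and 91.3 in DMSO IC against 119.9, 127.3 and 117.9 in iBET IC. All iBET libraries lay above the DMSO libraries of the same stimulation. The fitted log2 fold change was 0.31 ± 0.09 in Ova (adjusted p = 0.0214) and 0.36 ± 0.09 in IC (adjusted p = 0.0077). With mouse A's DMSO Ova library omitted, the value in Ova was 0.19 (adjusted p = 0.131). The call in Ova was lost in 4 of the 12 fits that left out 1 library. It was also lost without any 1 mouse (adjusted p from 0.0710 to 0.213). That in IC was lost without mouse B (adjusted p = 0.135) or mouse C (adjusted p = 0.0757). For Med13 the log2 fold change was 0.10 ± 0.09 in Ova (adjusted p = 0.406) and 0.0023 ± 0.09 in IC (adjusted p = 0.988), where the sign changed with the scaling.

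Cdk8, Cdk19 and Ccnc did not pass in either drug contrast. The log2 fold change of Cdk8 was 0.015 ± 0.15 in Ova (adjusted p = 0.955), with a sign that changed with the scaling, and -0.19 ± 0.15 in IC (adjusted p = 0.348). That of Cdk19 was -0.20 ± 0.11 (adjusted p = 0.173) and 0.08 ± 0.11 (adjusted p = 0.603), and that of Ccnc, their cyclin, was -0.19 ± 0.10 (adjusted p = 0.163) and -0.11 ± 0.10 (adjusted p = 0.426). Changes of this size can go uncalled with 3 libraries per group, so these values do not show that the kinases were unaffected.

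The balance between paralogs was compared as the log2 ratio of their counts within each library, with 2 of 3 pairs testable. The ratio of Med13 to Med13l was lower with iBET by 0.28 on the log2 scale, as the mean over both stimulations (difference -0.28, two-sided exact permutation of drug labels within stimulation, 400 arrangements, p = 0.005, adjusted over 2 pairs 0.01). With labels permuted within each mouse, the exact permutation p was 0.03125, the smallest that 64 arrangements allow, and 0.0625 adjusted over the 2 pairs. For 1 pair alone, that smallest p cannot fall below 0.05 after adjustment, so the blocked test could not decide the call. The ratio of Med13 to Med13l averaged 1.51 ± 0.16 in DMSO Ova and 1.30 ± 0.03 in iBET Ova, and 1.72 ± 0.05 in DMSO IC and 1.37 ± 0.0062 in iBET IC (SD, n = 3). Within a stimulation 3 against 3 libraries cannot go below p = 0.1 in an exact test, and both reached it. The ratio of Cdk8 to Cdk19 differed by -0.023 (exact permutation p = 0.875, adjusted 0.875), with 0.21 in Ova and -0.25 in IC. Med12 over Med12l was not tested, because Med12l had 5 counts over all 12 libraries.

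**Figure D4:**
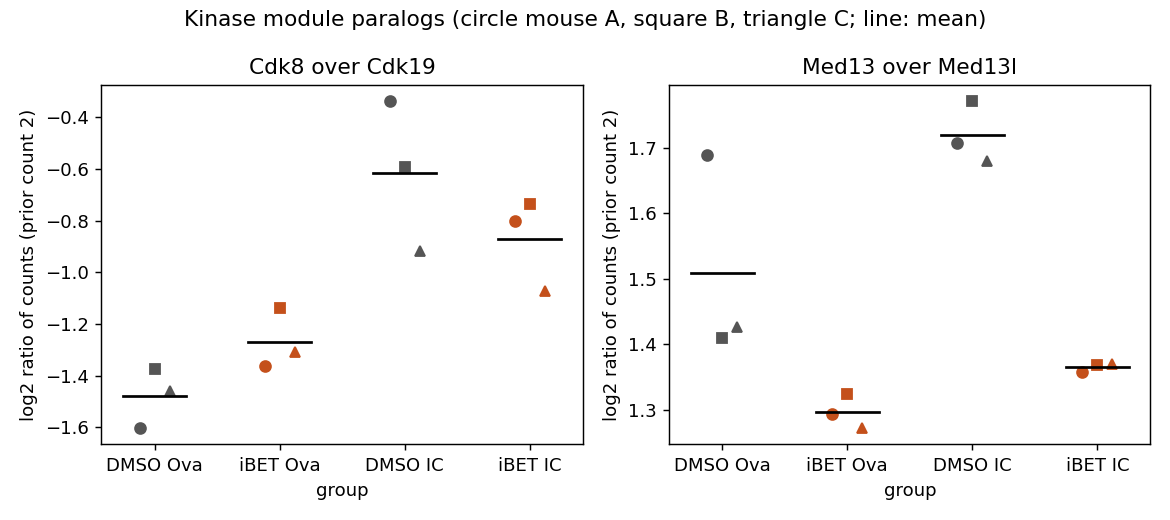
Log2 ratio of counts of Cdk8 over Cdk19 (left) and Med13 over Med13l (right) in each library (y axis, prior count 2) by group, with a mark for each mouse and a line at the mean. All iBET libraries lie below the DMSO libraries of the same stimulation for Med13 over Med13l, and the IC libraries lie above the Ova libraries of the same drug arm for Cdk8 over Cdk19.

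The second question was how IC changed these transcripts. In DMSO 1 subunit, Cdk19, passed as lower and none as higher, against 1.22% of all genes. With iBET 0 passed by edgeR, against 0.349% of all genes, and 0 by DESeq2, against 79 higher and 24 lower of 11468 genes. Before adjustment 4 of the 32 subunits were below 0.05 by edgeR, against 860 of the 11468 genes. Cdk19 read 98.6, 78.9 and 75.4 CPM in DMSO Ova and 56.7, 56.8 and 60.0 in DMSO IC. With iBET it read 70.9, 75.8 and 70.7 CPM in Ova and 56.4, 63.1 and 63.9 in IC. The IC libraries were below the Ova libraries in both drug arms. Its log2 fold change was -0.53 ± 0.11 with DMSO (adjusted p = 0.0354) and -0.25 ± 0.11 with iBET (adjusted p = 0.621), and these did not differ by the test of the difference (0.28 ± 0.15, adjusted p = 1.00). The call was lost in 11 of the 12 fits that left out 1 library, while the log2 fold change stayed between -0.60 and -0.44, with an adjusted p of 0.0552 when mouse A's DMSO Ova library, the highest of all, was omitted and of up to 0.129. It held with DESeq2 (adjusted p = 0.00312), with mouse as a block (adjusted p = 0.0284) and with 1 surrogate variable (adjusted p = 0.00597), and was lost in the fit to the compared groups alone (adjusted p = 0.295) and with any 1 mouse omitted (adjusted p from 0.0742 to 0.823).

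Med13 read 250.6, 228.6 and 253.9 CPM in DMSO Ova and 311.8, 335.2 and 293.0 in DMSO IC, with the groups apart. The log2 fold change was 0.36 ± 0.09 (adjusted p = 0.0821, and 0.0114 by DESeq2), and with iBET it was 0.26 ± 0.09 (adjusted p = 0.444). Cdk8 gave 0.36 ± 0.15 with DMSO (adjusted p = 0.368). The ratio of Cdk8 to Cdk19, looked at here after the values were seen and so given without a test, averaged -1.48 ± 0.12 in DMSO Ova and -0.62 ± 0.29 in DMSO IC, and -1.27 ± 0.12 in iBET Ova and -0.87 ± 0.18 in iBET IC. No library of one stimulation overlapped those of the other within a drug arm.

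Among the partners of Mediator, 12 of 31 general transcription factor genes passed with iBET in Ova, 10 higher and 2 lower, and 8 in IC, 7 higher and 1 lower. This was 38.7% and 25.8% of the list, against 31.3% and 34.8% of all tested genes. Taf13 and Taf4a, subunits of TFIID, had the largest rises in Ova, with log2 fold changes of 1.18 ± 0.20 and 0.96 ± 0.16, with Taf5 at 0.98 ± 0.16 in IC. Gtf2h2 of TFIIH and the TFIID subunit Taf9b had the largest falls in Ova, at -1.13 ± 0.16 and -0.72 ± 0.18. Of 12 genes for transcriptional kinases and their cyclins, 3 rose and 0 fell in Ova, and 5 rose and 1 fell in IC, or 25% and 50% of the list against the same 31.3% and 34.8%. Ccnt2, a cyclin of Cdk9, rose by 0.81 ± 0.13 in Ova and 0.77 ± 0.12 in IC, and Cdk13 by 0.54 ± 0.10 in Ova, with Ccnk, the cyclin of Cdk12 and Cdk13, at 0.50 ± 0.10 in IC. The fall was that of Mnat1, a partner of Cdk7, at -0.47 ± 0.16. Of 9 cohesin and cohesin-loader genes, 3 fell and 0 rose in Ova, and 3 fell and 1 rose in IC, or 33.3% and 44.4%, against 31.3% and 34.8% of all genes. Stag2, a cohesin subunit, fell by 1.01 on the log2 scale in Ova and by 0.93 in IC (edgeR, adjusted p = 0.00019 and 0.00029). Rad21, another, fell by 0.59 and 0.52, nearer the threshold (adjusted p = 0.0314 and 0.0474). Its Ova groups overlapped, at 300.0, 181.2 and 261.9 CPM with DMSO, the highest in mouse A, against 141.9, 168.2 and 182.9 with iBET. Mau2, part of the loader, was the rise in IC, at 0.53 ± 0.19. None of these lists had a call for IC against Ova by edgeR in either drug arm, against 1.22% of all genes in DMSO and 0.349% with iBET. Of their 52 genes, 2 in DMSO and 2 with iBET were at an unadjusted p under 0.05, against 1341 and 860 of all 11468 genes.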

How the data were processed

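RNA from 12 BMDM libraries was sequenced from a SMARTer pico kit. The authors trimmed reads with Trim Galore, aligned them to mm10 with HISAT2 and counted them per gene with featureCounts; versions, annotation and strand setting are not given in the sources used here. The deposited counts are whole reads per gene, and the deposited normalised signal equals these counts divided by size factors and was not tested. The labels give drug and stimulus as simultaneous and the study's methods place the drug first, which leaves their order unsettled.

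Counts were fitted with edgeR 4.0.16 (R 4.3.3): filterByExpr, TMM, 1 term per group over all 12 libraries, quasi-likelihood tests and Benjamini-Hochberg adjustment over 11468 genes. SE is the log2 fold change over the root of F. CPM uses TMM library sizes. The fit was tested on simulated counts, in which false calls were few but many changes of 2-fold and most of 1.5-fold were missed. Those libraries were drawn independently, without a mouse effect and without Rn45s, so the simulation does not cover these features of the data. Alternatives used DESeq2 1.42.0 and sva 3.50.0. Exon lengths and overlaps came from GENCODE vM21, matching 24045 of 24421 symbols. The members and lists were chosen with earlier results of these data known. Named subunits were all of the kinase module, the 5 largest called rises and falls per drug contrast, and any called for IC. Partner genes are the 2 largest called rises and falls per list and drug contrast.

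Mouse letters come from the labels, and libraries with the same letter were taken to come from the same animal. Deviations from group means correlated at a median of 0.26 over 18 pairs of the same mouse and -0.13 over 36 pairs of different mice. Depth limits the precision for the least counted subunits.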

Additional observations from a re-analysis of the deposited data

How the results depend on the processing

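For IC against Ova in DMSO, 1 subunit was called, and the count became 2 with DESeq2, with DESeq2 and mouse as a block, and with 1 surrogate variable (Med13 was the added one), and 0 with the compared groups alone, with both DMSO libraries of mouse A left out, and with the replicate block plus omission of the DMSO Ova library of mouse A. Over all genes the main fit called 84 higher and 56 lower, DESeq2 150 and 116, and DESeq2 with the block 227 and 210. The surrogate variable gave 291 and 213. The settings with 0 subunits gave 4 and 1, 107 and 71, and 118 and 105, in that order. For iBET against DMSO in Ova, 7 became 11 with 1 surrogate variable and 10 with the replicate block, which gave 11 in IC. Over all 11468 genes, higher and lower calls in Ova went from 1963 and 1630 to 2638 and 2094 with the surrogate variable. The block gave 2334 and 2053 in Ova, and 2564 and 2265 in IC against 2177 and 1810 in the main fit. Leaving out 1 mouse or 1 library gave 0 to 1 in IC against Ova in DMSO, 0 to 0 with iBET, 1 to 9 for iBET in Ova, 2 to 11 for iBET in IC and 0 to 0 for the difference. The count in Ova fell to 2 without mouse B, 1 without mouse C, and 4 without mouse A's or C's DMSO Ova library or mouse A's iBET Ova library. That in IC fell to 2 without mouse B and 5 without mouse C. All these fits had fewer libraries, and calls over all genes fell too. In Ova they were 715 higher and 595 lower without mouse B, and 1067 and 964 without mouse C. In IC they were 968 and 801 without mouse B, and 1362 and 1135 without mouse C. With the named Ova libraries omitted, the calls in Ova were 1622 and 1756, 1549 and 1311, and 1533 and 1294, in that order.

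The log2 ratio of Med13 over Med13l kept its direction, from -0.31 to -0.24, and p was 0.0556 without any 1 mouse, the smallest those fits allow, and 0.03125 with the replicate block (0.0625 adjusted over 2 pairs). That of Cdk8 over Cdk19 ran from -0.099 to 0.046, and the block gave -0.023. Between 16 and 19 subunits lay above the median per-length level.

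Cdk8 in Ova changed sign under several settings: -0.023 with DESeq2, -0.027 with DESeq2 size factors, -0.017 with at least 10 counts in every library, -0.0016 with the block and the DMSO Ova library of mouse A omitted, -0.0099 with Rn45s removed, -0.033 with the compared groups alone and -0.029 with DESeq2 and the block, with -0.088 to 0.093 over the fits that left out a mouse or library. Med13 in IC gave -0.029 with DESeq2 and with its size factors, -0.029 at 10 counts in every library, -0.016, -0.0052, -0.0074 and -0.028 in the others of that order, -0.027 without both DMSO libraries of mouse A, and -0.043 to 0.054 over the left-out fits. The cause was not tested.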
